A study of Mus musculus with 217 samples.

Results

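The genes described here encode the receptor complex through which cells sense bacterial lipopolysaccharide (LPS) and the first proteins that carry its signal into the cell. They are Tlr4, Ly96, Cd14, Tlr2, Myd88, Tirap, Ticam1, Ticam2, Irak3 and Irak4. The set was chosen by gene name and by no rule on measured values, though with earlier results of these data known. All 10 were found among the 52550 gene rows of the count tables. Their levels were followed in endothelial cells (ECs) of brain, lung and heart of RiboTag EC (Cdh5CreERT2/+; Rpl22HA/+) mice on the C57BL/6J background. All groups carried both alleles and all had received tamoxifen, 4 doses of 5 mg at 4 to 6 weeks of age, so that a Cre recombinase driven by the VE-cadherin promoter tagged ribosomes in ECs. RNA bound to the tagged ribosomes was pulled down from whole tissue and sequenced, so each level is ribosome-bound RNA and not protein. The treated groups received 10 mg/kg LPS intraperitoneally and were sampled 6, 24, 48, 72 and 168 hr later, and the 0 hr group is labelled as control.

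TLR4 does not bind LPS alone: CD14 on the cell surface hands LPS to MD-2, the protein made by Ly96, and MD-2 sits on TLR4. At the plasma membrane the sorting adaptor TIRAP brings in MyD88 and the kinase IRAK4, which leads to NF-kappaB, while after uptake into endosomes TRAM (Ticam2) brings in TRIF (Ticam1), which leads to interferon genes. IRAK-M, made by Irak3, restrains the MyD88 branch and is known for its part in endotoxin tolerance, and TLR2 is a sister receptor for bacterial lipopeptides that shares TIRAP and MyD88. ECs meet circulating LPS directly, and macrophages, monocytes and neutrophils carry the same receptors.

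Of 98 libraries 80 were used, 28 from brain, 28 from heart and 24 from lung, with 2 to 6 per tissue and time point. The 18 libraries left out had under 3% of their reads on genes. Counts on genes in those used ran from 284457 to 43417945 per library, so that a floor of 3 counts stands for 0.0691 to 10.5 CPM, which are counts per 1000000 counts on genes. Levels below are CPM after TMM scaling, and intervals and floors cover counting error only. The share of reads on genes was 53.4% to 70.0% in brain, 43.7% to 68.9% in heart and 3.40% to 61.0% in lung. Pan-endothelial marker genes were all present at 0 hr, with a summed level of 2942 to 5601 CPM in brain, 14446 to 22941 CPM in lung and 13684 to 15809 CPM in heart. Markers of neurons and glia summed to 1673 to 9355 CPM in the brain libraries, markers of alveolar and airway epithelium to 7231 to 13984 CPM in lung and markers of cardiomyocytes to 3522 to 6486 CPM in heart. Whether this RNA came from ECs or from the surrounding tissue was not tested. In such bulk libraries more cells of a type and more RNA per cell cannot be told apart.

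Some libraries stood apart and bear on the results below. At 6 hr the brain replicate 6, heart replicate 5 and lung replicate 4 libraries, which the names of the count tables tie to 1 mouse, held most of these genes at the 0 hr level or at 0. Called results of the 10 genes at 6 hr are given with and without these libraries. Calls of marker genes and of other pathway genes at 6 hr are given only with them. The lung replicate 4 library of that mouse had 284457 counts, 94.1% of them in 10 genes. After TMM scaling its effective size was 34612 counts, so a 0 there says little about the level of a gene. Lung replicates 1 and 2 at 6 hr had 6.93% and 8.12% of reads on genes, so that 1 deep lung library, replicate 3 with 40128330 counts, remained at that time. The table names also fall into 4 patterns, called library series here, and the series entered each test as a covariate. Series 4 holds no 0 hr or 6 hr library in any tissue. Its offset therefore rests on the later groups that it shares with other series, and fitted changes at those times can depart from the plain levels. Tests were edgeR quasi-likelihood tests with p adjusted by Benjamini-Hochberg over all genes tested and a threshold of 0.05. They measure the spread between libraries, and what else separates the replicates is not stated.

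At 0 hr Tlr4 and Tlr2, the 2 receptors that span the membrane, were lowest in brain ECs and highest in heart ECs. Tlr4 lay at 2.58 to 6.19 CPM in the 5 brain libraries, at 4.64 to 7.74 CPM in the 4 lung libraries and at 16.8 to 29.4 CPM in the 5 heart libraries. Every heart library was above every brain and lung library. Brain was 5.47-fold below heart (log2 difference -2.45, SE 0.31, edgeR adjusted p = 6.51e-06) and lung 3.11-fold below heart (adjusted p = 5.21e-04, edgeR). The difference between brain and lung was smaller, -0.82 on the log2 scale (edgeR adjusted p = 0.0322), and lost its call when any of 5 libraries was left out, with adjusted p up to 0.0944. With the mouse as block it did not pass either (log2 difference -0.80, edgeR adjusted p = 0.0538).

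Tlr2 followed the same order more steeply. The brain libraries held 1.31 to 2.86 CPM, the lung libraries 5.30 to 8.70 CPM and the heart libraries 13.5 to 19.6 CPM, and the 3 ranges did not overlap. Brain was 8.37-fold below heart (log2 difference -3.07, SE 0.27, edgeR adjusted p = 1.86e-07) and 3.64-fold below lung (edgeR adjusted p = 3.83e-05). Lung was 2.30-fold below heart (edgeR adjusted p = 0.00174).

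Ly96, the MD-2 gene, had another order, with lung on top. It was 17.3 to 31.9 CPM in lung, 5.20 to 13.8 CPM in brain and 8.67 to 12.5 CPM in heart. Lung was above heart by 1.12 on the log2 scale (SE 0.29, edgeR adjusted p = 0.00375) and brain below lung by 1.53 (log2 difference -1.53, SE 0.29, adjusted p = 3.05e-04), while brain and heart ranges overlapped (adjusted p = 0.217, edgeR). Set against Tlr4 per kb of exon, Ly96 exceeded it in every tissue, by a median log2 ratio of 3.39 in brain and 3.98 in lung but 1.67 in heart. Cd14 was low everywhere at 0 hr, at 2.00 to 4.04 CPM in brain, 1.25 to 7.51 CPM in lung and 2.01 to 3.17 CPM in heart, and no pair of tissues passed the test.

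Among the adaptors and kinases, Myd88 read 13.1 to 26.7 CPM in brain, 28.3 to 59.7 CPM in lung and 31.3 to 36.6 CPM in heart. Brain was lower than lung by 1.17 and lower than heart by 0.76 (log2 differences -1.17 and -0.76, edgeR adjusted p = 5.63e-04 and 0.00980). Tirap was highest in heart, at 11.3 to 19.8 CPM against 5.09 to 13.8 CPM in brain and 3.52 to 7.25 CPM in lung. Heart was 3.04-fold above lung (edgeR adjusted p = 0.00165) and 2.04-fold above brain (adjusted p = 0.0175), and the latter call was lost without brain replicate 3, 4 or 5 (adjusted p of 0.0518 to 0.0589). Ticam1 read 8.12 to 19.0 CPM over all 14 libraries, and no pair of tissues passed in the reported fit, which does not pair the tissues of a mouse. With the mouse as block brain was below heart (log2 difference -0.56, edgeR adjusted p = 0.0417). DESeq2, limma-voom and series 2 alone also called this difference. Ticam2 was at most 0.232 CPM in brain and heart and reached 2.03 CPM in lung, and it fell under the low-count filter of the reported fit. Without that filter lung was above heart (log2 difference 3.44, edgeR adjusted p = 0.00161) and brain below lung (-3.06, adjusted p = 0.0038). With series 2 alone the values were 3.49 and -3.27 (edgeR adjusted p = 8.95e-04 and 0.0011).

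Irak3 and Irak4 differed in their order. Irak3 was 7.32 to 20.3 CPM in brain, 5.27 to 15.2 CPM in lung and 15.8 to 23.3 CPM in heart. Lung was lower than heart by 0.87 (log2 difference -0.87, edgeR adjusted p = 0.0413), a call lost when any of 5 libraries was left out (adjusted p up to 0.127). Brain against heart did not pass in the reported fit. It passed with the mouse as block (log2 difference -0.82, edgeR adjusted p = 0.0348), and with DESeq2, limma-voom and series 2 alone. Irak4 was highest in lung, with 41.2, 129, 66.8 and 19.2 CPM, against 4.86 to 13.9 CPM in brain and 18.4 to 26.4 CPM in heart. Brain was 7.88-fold below lung and 2.65-fold below heart (edgeR adjusted p = 7.51e-05 and 0.0123). The lung libraries overlapped those of heart, and the lung excess of 1.57 on the log2 scale (edgeR adjusted p = 0.00742) was 0.96 without lung replicate 2 (adjusted p = 0.0505). Over the 24 lung libraries of all times the level of Irak4 was higher where fewer reads fell on genes (Spearman rho -0.66, Pearson r -0.71 across libraries), and the part of this in the lung level was not tested.

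Counted over the 3 pairs, 5 of the 9 members tested differed between brain and lung, 5 between brain and heart and 6 between lung and heart. Of all 17730 genes tested 64.3%, 54.8% and 61.1% differed in these pairs, so the members' share was near the background. All 10 calls of brain were towards lower levels, where 26.4% of all genes were lower than in lung and 22.8% lower than in heart. Markers of microglia, which also carry these receptors, summed to 167 to 354 CPM in brain, 97.6 to 287 CPM in lung and 83.6 to 112 CPM in heart at 0 hr. Those of inflammatory monocytes and macrophages summed to 43.9 to 164, 385 to 1163 and 39.3 to 65.2 CPM in the same order, and their part in the levels was not tested.

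**Figure D1:**
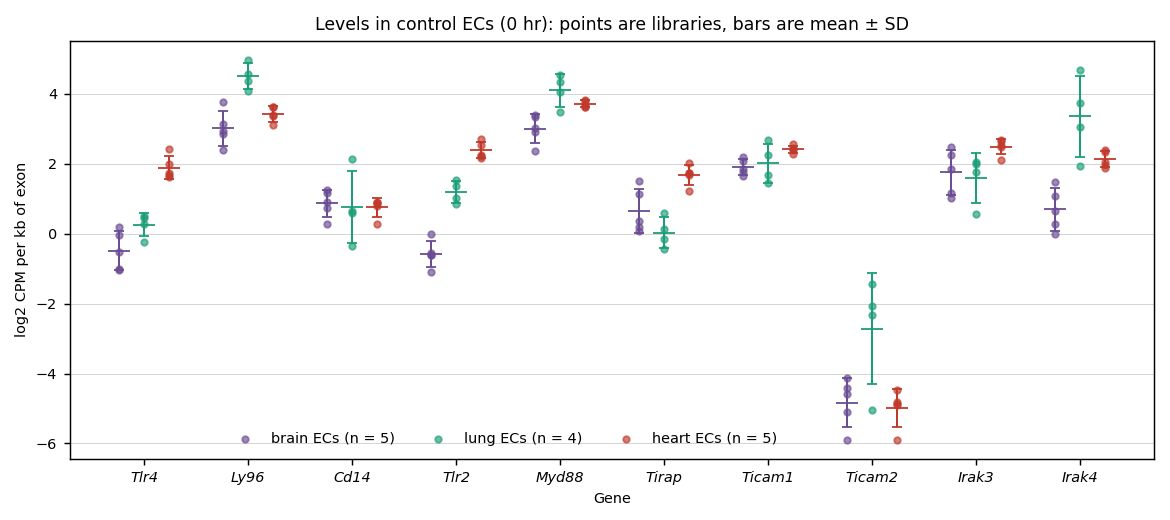
Levels of the 10 genes (horizontal axis) at 0 hr as log2 CPM per kb of exon (vertical axis) in brain (n = 5), lung (n = 4) and heart (n = 5) ECs. Points are libraries and bars the mean ± SD. Tlr4 and Tlr2 are highest in heart, Ly96 and Irak4 have their highest means in lung, and Ticam2 lies far below the other genes.

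After LPS, 5 of 10 members were higher in brain ECs at 6 hr, and 6 each passed at 24 and 48 hr. At 72 hr 2 were higher, by 168 hr 0, and none was lower at any time. Of all 19234 genes tested 4.21%, 6.52%, 8.11%, 2.98% and 0% were higher at these times. In heart ECs, where 9 members could be tested, 4 were higher at 6 hr and 5 at 24 hr, then 2 at 48 hr and 0 later. Of 16024 genes 22.4%, 9.07%, 3.08%, 0.275% and 0% were higher, so that the background at 6 hr was far larger in heart than in brain. In lung ECs 1 member was higher and 1 lower at 6 hr, 1 was higher at 48 hr, and none passed at 24, 72 or 168 hr, against 2.56%, 0.363%, 0.428%, 0.17% and 0% of 17058 genes higher in the order of times, and 2.27% lower at 6 hr. The median log2 fold change of the members at 6 hr was 0.92 in brain (0.00 for all genes tested), 0.98 in lung (-0.42) and 0.23 in heart (-0.05). The share of reads on genes moved with some members. In heart it was 43.7% to 54.8% in the 4 libraries at 6 hr in which members rose, 67.7% in replicate 5 and 60.5% to 65.7% at 0 hr, and over all 28 heart libraries Pearson's r between this share and the log2 level was -0.77 for Tlr2, -0.73 for Myd88, -0.67 for Irak3 and -0.60 for Cd14 (Spearman rho -0.47, -0.49, -0.53 and -0.59). In brain r was -0.55 for both Cd14 and Tlr2 and weaker for Myd88 and Irak3 (-0.33 and -0.34), and in lung, Irak4 aside, r lay between -0.08 and 0.48. These libraries share times and groups, and the part of this share in the changes was not tested. Cd14, Tlr2, Myd88 and Irak3 gave most of the calls, and Ly96, Tlr4, Ticam1 and Irak4 had none in heart, where Ticam2 was not tested.

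**Figure D2:**
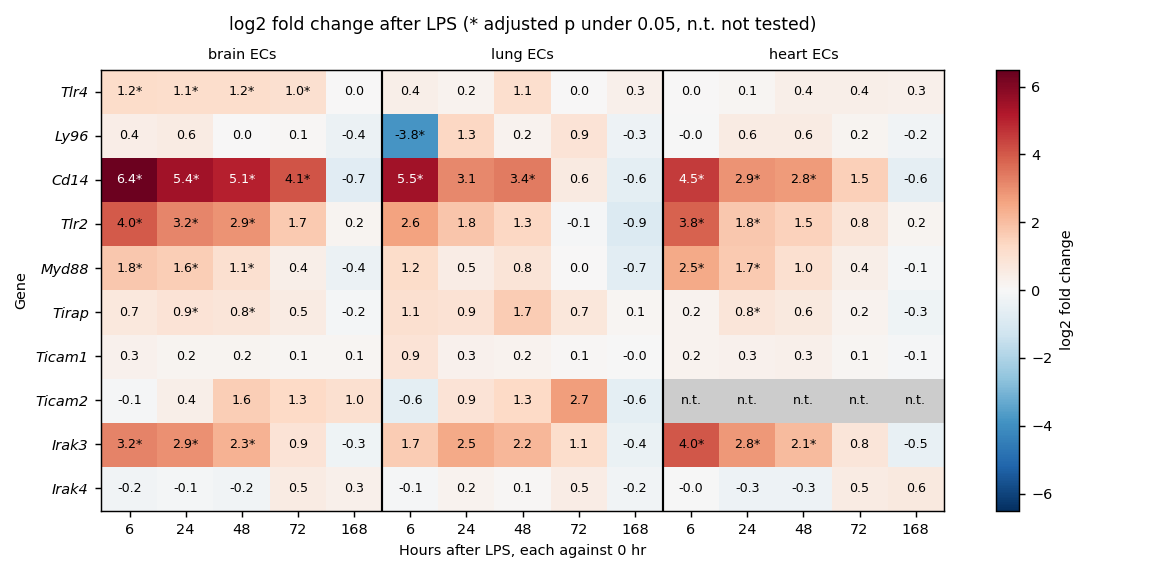
Log2 fold change against 0 hr from the edgeR fits as a colour map, red for higher and blue for lower, with the value in each cell. Columns are hours after LPS in brain, lung and heart ECs, lines are the 10 genes, and a star marks an adjusted p under 0.05. Cd14 has the deepest red at 6 hr with the shallow lung libraries kept (6.39 in brain, 5.47 in lung and 4.54 in heart), Ly96 in lung at 6 hr is the 1 starred blue cell (-3.85), no cell is starred at 168 hr, and Ticam2 was not tested in heart.

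In the GENCODE annotation of GRCm38, Tlr4 lies at chr4:66827584-66930284 and Ly96 at chr1:16688051-16709611 on the plus strand, Tlr2 at chr3:83836272-83841767, Myd88 at chr9:119335934-119341411, and Irak3 at chr10:120141648-120202130 on the minus strand. For the 3 genes with a RefSeq promoter (GRCm38.p6) that rose in both brain and heart at 6 hr, the stretch within 250 bases before the start that holds no annotated exon is shown 5′ to 3′ on the gene's strand, with motif matches in capitals. The stretches are chr3:83841768-83841858 for Tlr2, chr9:119340042-119340268 for Myd88 and chr10:120202196-120202380 for Irak3, all minus strand.
Tlr2: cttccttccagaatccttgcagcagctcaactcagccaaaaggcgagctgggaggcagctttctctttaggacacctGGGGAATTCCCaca
Myd88: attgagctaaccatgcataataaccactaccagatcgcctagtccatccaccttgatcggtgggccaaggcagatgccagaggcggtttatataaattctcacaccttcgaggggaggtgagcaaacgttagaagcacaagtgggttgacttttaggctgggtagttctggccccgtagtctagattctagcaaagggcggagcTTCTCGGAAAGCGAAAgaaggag
Irak3: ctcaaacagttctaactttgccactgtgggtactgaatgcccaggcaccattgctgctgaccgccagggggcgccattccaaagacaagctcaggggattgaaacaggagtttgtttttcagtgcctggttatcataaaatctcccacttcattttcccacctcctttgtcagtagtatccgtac
Both strands were searched for an NF-kappaB motif, for a pair of GAAA with 2 bases between them (interferon factors), for TTCNNNGAA (STAT) and for an ETS motif. In the Tlr2 stretch overlapping NF-kappaB matches lie 163 and 164 bases before the start, and 2.19% of all promoters hold a match in the same window. The Myd88 stretch holds the GAAA pair 31 bases and TTCNNNGAA 38 bases before the start, which overlap each other, and 2.78% and 6.56% of promoters hold these in that window. None of the motifs is in the Irak3 stretch, where 5.05% of promoters hold an NF-kappaB match. A match is a description of the letters and not evidence of binding.

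Cd14, the co-receptor that hands LPS on, had the largest fitted change of the 10 genes at 6 hr in brain and heart, and in lung with the shallow libraries kept (below), and was the 1 member called in all 3 tissues. The 5 brain libraries at 0 hr read 4.04, 3.79, 2.80, 3.12 and 2.00 CPM, and those at 6 hr 192, 298, 299, 164 and 2.54 CPM. The 4 brain libraries at 24 hr read 207, 127, 382 and 316 CPM. At 6 hr 4 libraries stood far above 0 hr, while replicate 6, of the mouse described above, lay within the 0 hr range, and at 24 hr all were above. The increase was 83.9-fold at 6 hr (log2 fold change 6.39, SE 0.87, edgeR adjusted p = 1.20e-04) and 43.5-fold at 24 hr (5.44, SE 0.85, adjusted p = 3.67e-04). Without the mouse at 6 hr the log2 fold change was 6.86. At 48 hr the 6 brain libraries ranged from 9.31 to 314 CPM with a median of 274 CPM, and at 72 hr the 4 libraries read 34.6, 25.3, 78.2 and 228 CPM. Both times were still above every 0 hr library, with log2 fold changes of 5.08 and 4.11 (edgeR adjusted p = 4.90e-04 and 0.00296). By 168 hr the libraries held 3.55 to 5.10 CPM.

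Heart ECs reached lower Cd14 levels from the same start. The 0 hr libraries read 3.07, 3.10, 2.01, 2.89 and 3.17 CPM, and those at 6 hr 55.3, 144, 51.1, 49.4 and 3.38 CPM. The 4 libraries at 24 hr read 19.5, 17.3, 32.6 and 34.0 CPM, and the 6 at 48 hr 10.2 to 30.0 CPM with a median of 26.1 CPM. All were above 0 hr, although replicate 5 at 6 hr exceeded the highest 0 hr library by less than the spread at 0 hr. The log2 fold change was 4.54 at 6 hr (SE 0.61, edgeR adjusted p = 1.84e-05), 5.00 without that library's mouse, 2.91 at 24 hr (adjusted p = 0.00413) and 2.79 at 48 hr (adjusted p = 0.00511). At 72 hr the 4 libraries, 3.95, 8.80, 10.1 and 13.7 CPM, were each above 0 hr but did not pass (log2 fold change 1.54, edgeR adjusted p = 0.499).

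In lung ECs the 0 hr libraries read 2.61, 2.50, 1.25 and 7.51 CPM and those at 6 hr 475, 125, 16.2 and 0 CPM. The 2 highest are the shallow libraries, and the deep library held 16.2 CPM. The 0 belongs to the library with 284457 counts, whose floor was 10.5 CPM before TMM scaling and higher after it. The log2 fold change was 5.47 (SE 0.90, edgeR adjusted p = 0.00109), 6.04 without replicate 4, and 6.35 with series 2 alone, which did not pass (adjusted p = 0.214, edgeR). When libraries under 10% of reads on genes were left out, which leaves the deep library at 6 hr, the log2 fold change was 2.79, under the 3.30 of Tlr2 and 3.13 of Irak3 and smaller in size than the -2.86 of Ly96. The spread in that fit comes from the other groups alone, and a lone library is assumed to vary as they do. At 24 hr the 2 libraries read 16.2 and 75.3 CPM (edgeR adjusted p = 0.199), and at 48 hr the 6 ranged from 23.9 to 78.3 CPM with a median of 38.1 CPM. The 48 hr increase passed (log2 fold change 3.38, edgeR adjusted p = 0.0235), but not when lung 0 hr replicate 1, 2 or 3 or 48 hr replicate 1 or 3 was left out (adjusted p of 0.0530 to 0.161).

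Tlr2 was the other receptor that rose in brain and heart ECs. In brain it went from 1.88, 2.86, 1.31, 1.86 and 1.96 CPM at 0 hr to 39.7, 55.2, 46.4, 12.7 and 1.46 CPM at 6 hr, and in heart from 19.6, 14.2, 17.5, 14.0 and 13.5 CPM to 297, 246, 415, 130 and 13.6 CPM. In both tissues the last 6 hr value is the library of the mouse described above, and the other 4 were all above 0 hr. The increase was 15.6-fold in brain (log2 fold change 3.96, SE 0.58, edgeR adjusted p = 1.99e-04) and 14.3-fold in heart (3.84, SE 0.53, adjusted p = 2.18e-05). Without that mouse the log2 fold changes were 4.44 and 4.29. Heart started higher, and its median at 6 hr was 246 CPM beside 39.7 CPM in brain.

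At 24 hr Tlr2 passed in both tissues, and at 48 hr in brain. The brain libraries at 24 hr read 20.5, 20.8, 15.5 and 11.1 CPM, and at 48 hr 6.92 to 18.8 CPM with a median of 14.7 CPM, all above 0 hr. The log2 fold changes were 3.17 and 2.91 (edgeR adjusted p = 0.00126 and 0.00157), and 1.70 at 72 hr did not pass (adjusted p = 0.0915), though the libraries, 4.63 to 7.33 CPM, were all above 0 hr. In heart the 24 hr libraries read 72.9, 36.6, 56.8 and 35.2 CPM (log2 fold change 1.77, edgeR adjusted p = 0.0265). Leaving out heart 0 hr replicate 2 or 4 or 24 hr replicate 1 or 2 ended that call (adjusted p of 0.0507 to 0.0877). At 48 hr the 6 heart libraries read 32.2 to 52.7 CPM with a median of 42.2 CPM, all above every 0 hr library, with a log2 fold change of 1.52 that did not pass (edgeR adjusted p = 0.0639). It passed without the mouse at 6 hr (1.45, edgeR adjusted p = 6.90e-04) and with all libraries kept (1.57, adjusted p = 0.0274), and how long the increase lasted was not compared between tissues by a test. In lung Tlr2 read 8.70, 7.71, 5.30 and 6.02 CPM at 0 hr and 86.0, 0, 59.5 and 0 CPM at 6 hr, which did not pass (edgeR adjusted p = 0.0672) until replicate 4 was left out (log2 fold change 2.98, adjusted p = 0.0470).

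Tlr4, the LPS receptor itself, passed in brain ECs and in no other tissue, and changed by less than Cd14 and Tlr2. The brain libraries went from 6.19, 5.26, 2.58, 3.79 and 2.65 CPM at 0 hr to 6.02, 8.01, 5.97, 9.72 and 7.25 CPM at 6 hr and 18.4, 7.46, 9.92 and 10.9 CPM at 24 hr. The ranges overlapped at 6 hr, where 3 of 5 libraries exceeded every 0 hr library, and not at 24 hr. The log2 fold change, with library series in the fit, was 1.17 at 6 hr (SE 0.26, edgeR adjusted p = 0.00533) and 1.15 at 24 hr (SE 0.28, adjusted p = 0.00959). Without the mouse at 6 hr it was 1.42 (edgeR adjusted p = 1.17e-04). Without the series covariate the value at 6 hr was 0.77 (adjusted p = 0.536), and without brain replicate 1 or 2 at 24 hr the adjusted p was 0.0565 or 0.0648. At 48 hr the libraries ranged from 4.02 to 17.8 CPM with a median of 14.4 CPM (log2 fold change 1.15, edgeR adjusted p = 0.00553). With series 2 alone that value was 0.51 (edgeR adjusted p = 0.346), and the log2 difference from 0 hr was 1.39 within series 1 and 0.47 within series 2. At 72 hr they read 5.47, 5.32, 14.4 and 12.0 CPM (1.04, edgeR adjusted p = 0.0267), a call lost when any of 6 libraries was left out (adjusted p of 0.0569 to 0.113).

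In heart ECs Tlr4 kept its high level, with 13.9 to 32.9 CPM at 6 hr and 16.6 to 35.5 CPM over the later times against 16.8 to 29.4 CPM at 0 hr. Its largest log2 fold change there was 0.39, at 48 and 72 hr (edgeR adjusted p = 0.331 and 1). In lung the 6 hr libraries read 29.3, 0, 5.66 and 0 CPM, and no time passed. The brain response of Tlr4 minus the heart response at 6 hr was 1.19 on the log2 scale (SE 0.51) and did not pass as a difference (edgeR adjusted p = 0.291; 1.60 and 0.0526 without the mouse), so a call in brain and none in heart does not show that the responses differ.

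Ly96 was the 1 member that fell, in lung ECs at 6 hr. The 0 hr lung libraries read 31.9, 17.3, 23.9 and 20.8 CPM, and the 6 hr libraries 0, 0, 2.95 and 0 CPM. All 4 read below every 0 hr library, and the 1 above 0 was the deep library, with 94 counts. The floor of 3 counts is 1.12 CPM in replicate 1, 1.09 CPM in replicate 2 and 10.5 CPM in replicate 4 before TMM scaling. On the scaled level the floors are higher, as the effective sizes were 1674197, 687002.5 and 34611.58 counts. The zeros of replicates 1 and 2 lie under the 0 hr level, while that of replicate 4 cannot be set against it. Ly96 fell by 3.85 on the log2 scale (SE 0.75, edgeR adjusted p = 0.00382). The value was -3.81 without replicate 4 and -2.86 with the deep library alone at 6 hr. With 1 library left out at a time it kept its call but ran from -11.1 to -3.36, so the size of the fall is uncertain. With series 2 alone, 3 libraries at 6 hr and 2 at 0 hr, it was -4.03 and did not pass (edgeR adjusted p = 0.413). At 24 hr the 2 lung libraries read 61.4 and 70.3 CPM, at 72 hr the 4 read 31.2 to 51.3 CPM and at 168 hr 18.1 to 27.4 CPM, none of which passed against 0 hr.

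No fall was measured in the other tissues. The brain libraries at 6 hr read 21.5, 6.70, 12.8, 9.82 and 7.25 CPM against 5.20 to 13.8 CPM at 0 hr, and heart libraries 8.79, 10.6, 8.14, 18.2 and 9.31 CPM against 8.67 to 12.5 CPM. The difference between responses passed for both pairs that hold lung. Brain minus lung was 4.07 (SE 0.57, edgeR adjusted p = 2.89e-06) and lung minus heart -3.57 (SE 0.56, adjusted p = 1.90e-05) on the log2 scale. Without the mouse at 6 hr they were 4.35 and -3.44 (edgeR adjusted p = 1.66e-06 and 3.74e-05). With 1 replicate number left out at a time both kept their call, but ran from 3.22 to 12.3 and from -11.8 to -3.06. In heart the Ly96 level at 24 hr, 13.4, 17.9, 17.4 and 13.4 CPM, was above every 0 hr library, with a log2 fold change of 0.56 (edgeR adjusted p = 0.0544). Without the mouse at 6 hr it was also 0.56, with an adjusted p of 0.0397 (edgeR).

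**Figure D3:**
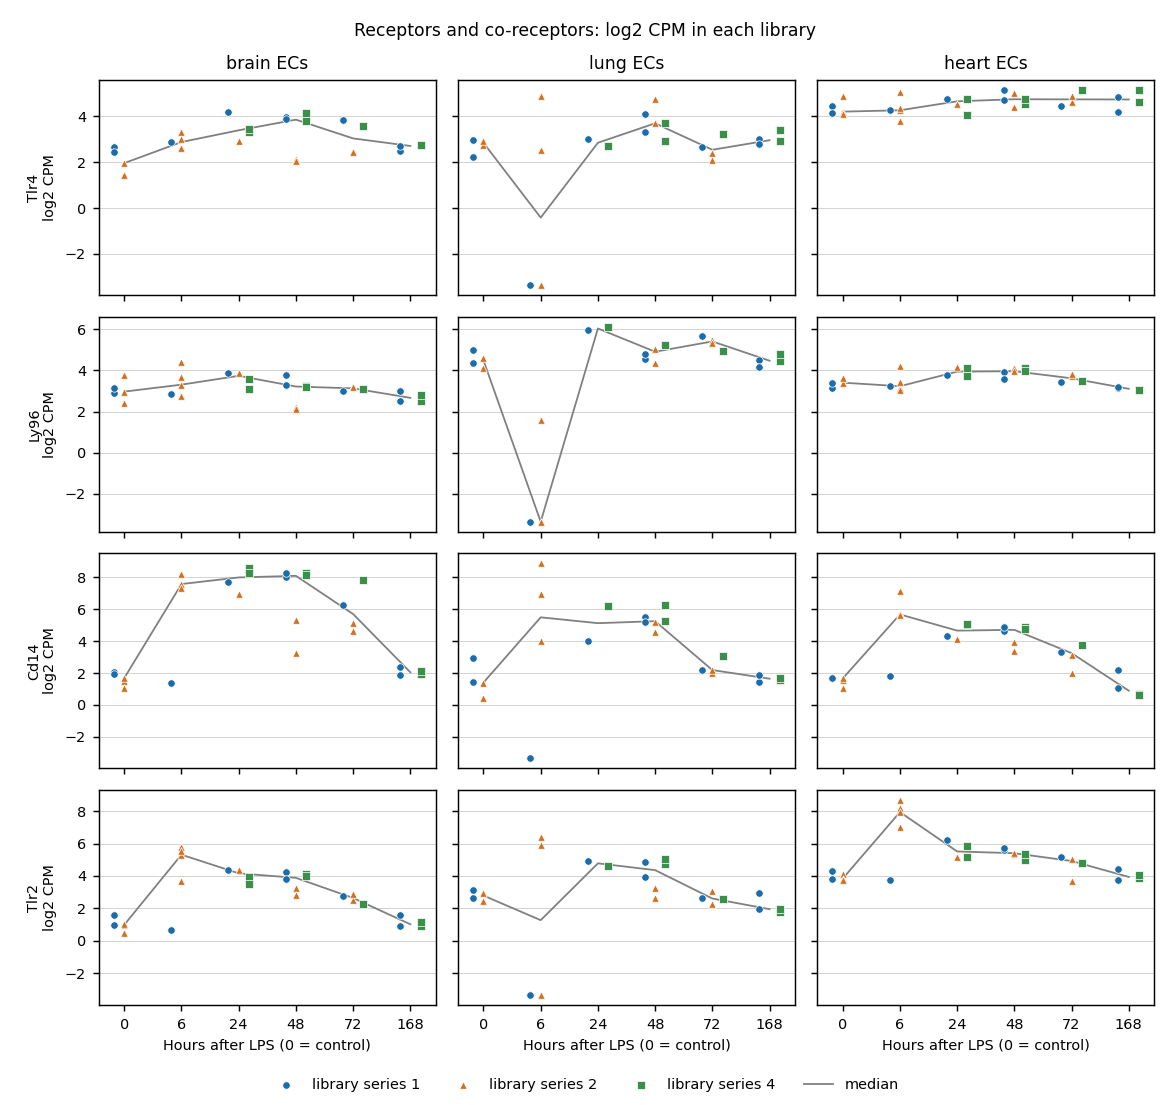
Log2 CPM (vertical axis, prior count of 2) of Tlr4, Ly96, Cd14 and Tlr2 in each library against hours after LPS (horizontal axis, evenly spaced time points) in brain, lung and heart ECs. Symbols give the library series, lines join the group medians, and libraries without a count lie at -3.35. Cd14 rises in 4 of 5 brain libraries at 6 hr, with the series 1 library staying at the 0 hr level, and Ly96 in lung drops at 6 hr.

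Myd88, the adaptor shared by TLR4 and TLR2, rose in brain and heart ECs. The 0 hr brain libraries read 25.9, 26.7, 19.1, 20.7 and 13.1 CPM, those at 6 hr 76.6, 82.7, 70.9, 53.3 and 22.4 CPM and those at 24 hr 93.1, 57.7, 116 and 128 CPM. In heart the 0 hr libraries lay between 31.3 and 36.6 CPM, and those at 6 hr read 345, 220, 234, 122 and 33.0 CPM. Again 4 of 5 libraries at 6 hr were above every 0 hr library in both tissues, and all were at 24 hr. Brain rose 3.39-fold at 6 hr (log2 fold change 1.76, SE 0.34, edgeR adjusted p = 0.00170) and heart 5.59-fold (2.48, SE 0.38, adjusted p = 4.75e-05). Without the mouse of replicates 6 and 5 the values were 2.13 and 2.87. At 24 hr the log2 fold changes were 1.62 and 1.68 (edgeR adjusted p = 0.00510 and 0.00794), the heart libraries reading 97.9, 116, 143 and 154 CPM. Brain at 48 hr passed by little (1.05, edgeR adjusted p = 0.0345), and 6 libraries each ended that call when left out (adjusted p of 0.0513 to 0.0985). In heart at 48 hr all 6 libraries were above every 0 hr library, but 1.045 did not pass (edgeR adjusted p = 0.0926). It passed without the mouse at 6 hr (0.96, edgeR adjusted p = 0.00900). DESeq2, no low-count filter and no series covariate also called it, while series 2 alone gave 0.52 without a call. Lung read 59.7, 28.3, 51.3 and 42.8 CPM at 0 hr and 202, 59.7, 128 and 0 CPM at 6 hr, with no time passing. Without replicate 4 its log2 fold change at 6 hr was 1.65 (edgeR adjusted p = 0.0625).

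Tirap passed at 24 hr in brain and heart, with smaller log2 fold changes than Myd88. At 6 hr brain libraries read 7.40 to 14.8 CPM against 5.09 to 13.8 CPM at 0 hr, and heart libraries 15.3 to 22.6 CPM against 11.3 to 19.8 CPM, with neither passing. At 24 hr the brain libraries held 25.6, 11.2, 26.0 and 28.4 CPM and the heart libraries 30.6, 29.8, 44.3 and 42.5 CPM. The heart ranges did not overlap, and brain replicate 2 lay within the 0 hr range. The log2 fold change at 24 hr was 0.90 in brain (SE 0.26, edgeR adjusted p = 0.0293) and 0.78 in heart (SE 0.23, adjusted p = 0.0263), and 0.81 in brain at 48 hr (adjusted p = 0.0270). These calls were near the threshold: each was lost when any of 4 or 5 libraries was left out, with adjusted p from 0.0521 to 0.134. The change from 6 to 24 hr was not tested, and without the mouse at 6 hr Tirap passed at 6 hr in brain too (log2 fold change 0.85, edgeR adjusted p = 0.0189). In lung no time passed, though the 2 libraries at 24 hr and all 6 at 48 hr were above every 0 hr library. The log2 difference at 48 hr was 1.66 within series 1 and 1.73 within series 2. DESeq2 called Tirap in lung at 6 and 48 hr (1.64 and 1.72, adjusted p = 0.0366 and 0.0169).

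The adaptors of the endosomal branch showed no call after LPS in the reported fits. Ticam1 read 9.34 to 13.6 CPM in brain and 14.3 to 17.4 CPM in heart at 0 hr and 11.5 to 14.7 CPM and 13.3 to 28.2 CPM at 6 hr, and its log2 fold changes in brain and heart lay between -0.07 and 0.33 over all times. The 4 heart libraries at 24 hr, 24.7, 18.2, 21.8 and 21.6 CPM, were each above 0 hr, with a log2 fold change of 0.29 (edgeR adjusted p = 0.297). In lung at 6 hr 3 of 4 libraries, at 23.1 to 33.5 CPM, were above every 0 hr library, and replicate 4 with 284457 counts read 0 CPM. DESeq2 called Ticam1 there (log2 fold change 1.43, adjusted p = 0.0252), and the reported fit did not. Ticam2 never exceeded 0.750 CPM in brain or 0.392 CPM in heart, so that a change was not detectable at this depth in heart, where it was not tested. In brain at 48 hr it passed when 0 hr replicate 2 was left out (log2 fold change 2.32, edgeR adjusted p = 0.0341). In lung it ranged from 0 to 12.9 CPM, the highest value at 72 hr, and 838 of its exon bases overlap those of Tmed7 on the same strand, so reads of the 2 genes may have been shared.

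Irak3, the inhibitory kinase gene, rose in brain and heart ECs. In brain it went from 17.5, 20.3, 7.32, 13.2 and 8.17 CPM at 0 hr to 123, 117, 132, 66.4 and 13.7 CPM at 6 hr and 168, 103, 184 and 173 CPM at 24 hr. In heart it went from 15.8, 20.3, 21.3, 22.8 and 23.3 CPM to 565, 448, 368, 263 and 26.1 CPM and then 186, 186, 232 and 179 CPM. Brain replicate 6 lay within the 0 hr range at 6 hr, heart replicate 5 was just above it, and every other library was far above every 0 hr library. The increase at 6 hr was 9.37-fold in brain (log2 fold change 3.23, SE 0.60, edgeR adjusted p = 0.00123) and 16.5-fold in heart (4.04, SE 0.55, adjusted p = 1.84e-05), or 3.68 and 4.47 on the log2 scale without that mouse. At 24 hr the log2 fold changes were 2.95 and 2.84 (edgeR adjusted p = 0.00292 and 0.00208). In lung the libraries read 12.5, 5.27, 15.2 and 14.5 CPM at 0 hr and 29.9, 1.46, 75.3 and 0 CPM at 6 hr (edgeR adjusted p = 0.169). The 2 lung libraries at 24 hr, 96.8 and 80.1 CPM, were above every 0 hr library with a log2 fold change of 2.46 that did not pass (adjusted p = 0.377, edgeR).

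Irak4, the kinase that starts the cascade, had no call after LPS in any tissue. Per kb of exon the median log2 ratio of Irak3 to Irak4 went from 1.19 at 0 hr to 4.74 at 6 hr in brain and from 0.51 to 4.33 in heart, through the increase of Irak3. At 48 hr the heart libraries of Irak4 lay at 2 levels, with 30.3, 24.8 and 26.2 CPM in replicates 1, 2 and 4 and 3.98, 5.72 and 5.31 CPM in replicates 3, 6 and 7. The lung libraries at 48 hr differed as well, with 238 and 193 CPM in replicates 1 and 2 and 9.14 to 25.7 CPM in the other 4. Exons of Irak4 overlap those of Twf1 on the opposite strand over 395 bases, and whether counting used strand is not given in the sources used here.

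**Figure D4:**
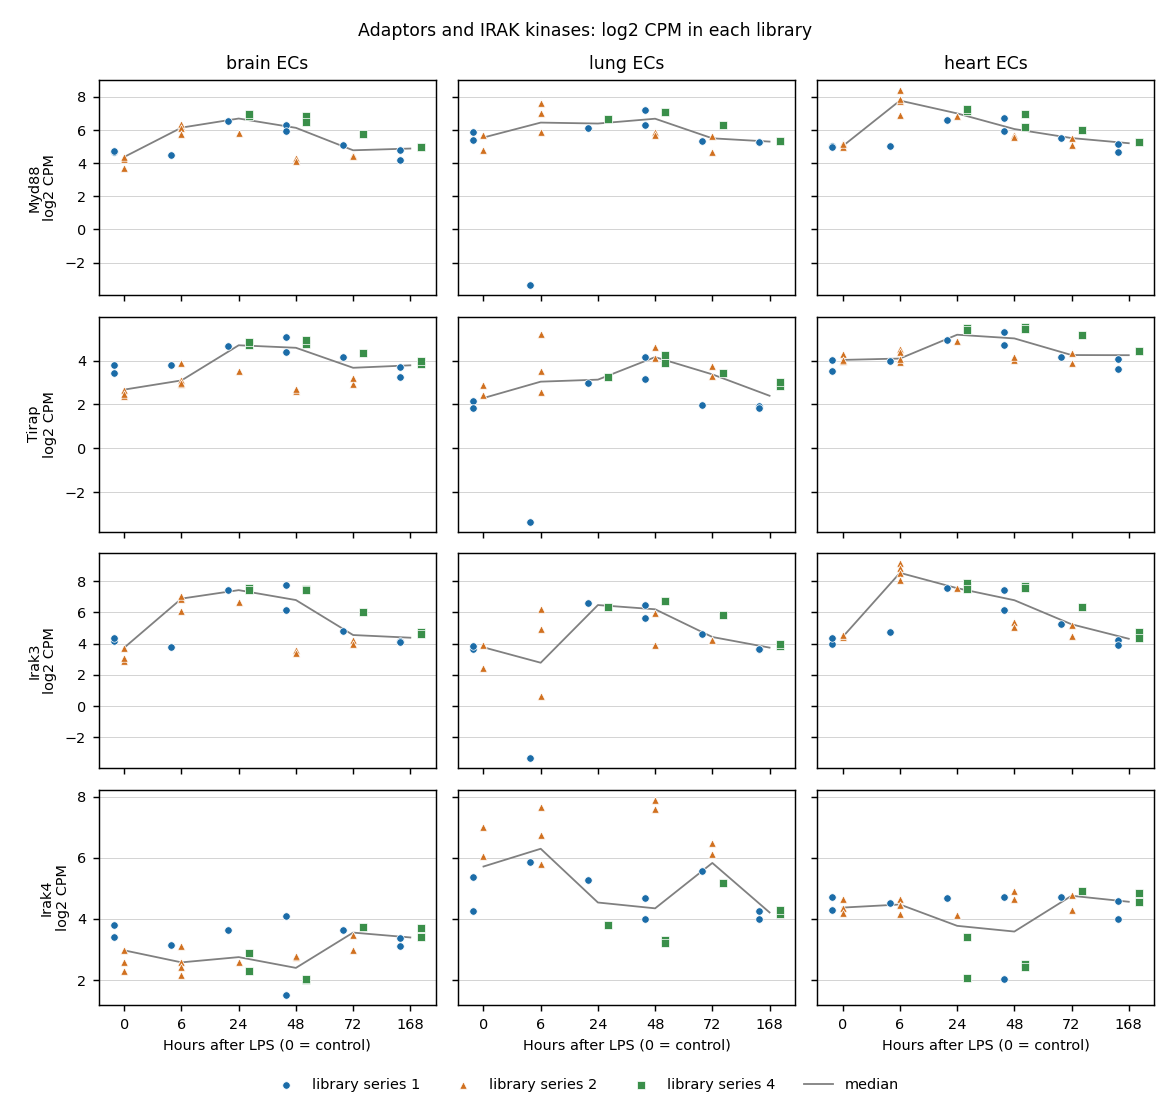
Log2 CPM (vertical axis, prior count of 2) of Myd88, Tirap, Irak3 and Irak4 in each library against hours after LPS (horizontal axis, evenly spaced time points) in brain, lung and heart ECs. Symbols give the library series and lines join the group medians. Myd88 and Irak3 rise at 6 hr in 4 of 5 libraries of brain and heart, and at 48 hr the series 2 libraries of brain lie below the others for Myd88, Tirap and Irak3.

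At 48 hr the members depended on the library series. In brain Irak3 read 12.1 and 10.5 CPM in replicates 1 and 2, which are series 2, and 211, 70.7, 179 and 171 CPM in replicates 3, 4, 6 and 7, which are series 1 and 4. Cd14 read 39.8 and 9.31 CPM in the former and 263 to 314 CPM in the latter, and Myd88 19.7 and 17.7 CPM against 62.3 to 117 CPM. Within series 1 the log2 difference from 0 hr was 2.69 for Irak3, 6.15 for Cd14 and 1.42 for Myd88, and within series 2 it was 0.28, 2.85 and 0.11. In heart the same split gave 42.2 and 33.6 CPM of Irak3 in replicates 1 and 2 and 70.8 to 205 CPM in the other 4, a log2 difference of 2.60 within series 1 and 0.74 within series 2. Over all series Irak3 passed at 48 hr in brain (log2 fold change 2.27, edgeR adjusted p = 0.0130) and heart (2.08, adjusted p = 0.0219). With series 2 alone the values were 0.30 and 0.76 (edgeR adjusted p = 0.596 and 0.559). The brain call was lost without 48 hr replicate 3 (adjusted p = 0.0555, edgeR) and the heart call without 0 hr replicate 1 or 2 or 48 hr replicate 3 (adjusted p of 0.0717 to 0.0810). Lcn2, an acute-phase gene, read 299 and 955 CPM in the brain libraries of series 2 and 7628 to 26003 CPM in the other 4 at 48 hr, and the cause of the split was not tested.

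Outside Ly96 no member passed edgeR's test of the difference in response between tissues, at 6 or 24 hr, in the fit reported here. Other settings gave calls at 6 hr. DESeq2 called Ticam1 for brain minus lung (-1.18, adjusted p = 0.00670) and Ticam1 and Tirap for lung minus heart (1.32 and 1.57, adjusted p = 0.00146 and 0.00301), and edgeR with RLE scaling called the same 3 differences. Without a low-count filter Cd14 passed for brain minus heart at 6 and 24 hr (1.79 and 2.48, edgeR adjusted p = 0.0478 and 0.0103). Of 22007 genes 12.6% passed for brain against lung and 16.4% for lung against heart at 6 hr, 0.795% for brain against heart, and 0.427%, 0.264% and 0.0772% in the same order at 24 hr. The Cd14 response of brain exceeded that of heart by 1.88 at 6 hr (SE 0.94) and 2.54 at 24 hr (SE 1.04) on the log2 scale, with edgeR adjusted p = 0.399 and 0.774. For Irak3 the lung response minus that of heart at 6 hr was -2.12 (edgeR adjusted p = 0.0714), and -2.34 (adjusted p = 0.0179) without the mouse described above. It also passed without a low-count filter (-2.20) and with the mouse as block (-2.32).

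Markers of leukocytes moved at the same times. Summed over 13 neutrophil genes, leaving out Lcn2, the level in heart was 1.08 to 1.88 CPM at 0 hr, with Ly6g, Camp, Mmp8 and Stfa2l1 at 0 in all 5 libraries, and 43.0 to 65.3 CPM in the 4 libraries at 6 hr in which the members rose, but 1.21 CPM in replicate 5. In brain it was 6.46 to 57.9 CPM at 0 hr and 8.63 to 431 CPM at 6 hr, and in lung 47.5 to 214 CPM and 28.9 to 4292 CPM. The lung libraries with 475 and 125 CPM of Cd14 at 6 hr had 4292 and 2191 CPM of these markers, and the deep library had 3787 CPM beside 16.2 CPM of Cd14. Monocyte and macrophage markers, 15 genes with Cd14 and Tlr2 not among them, went from 43.9 to 164 CPM to 62.9 to 305 CPM in brain, from 39.3 to 65.2 CPM to 35.8 to 106 CPM in heart and from 385 to 1163 CPM to 0 to 5358 CPM in lung. At 6 hr 3, 2 and 7 of them were higher in brain, lung and heart, and 3 of 13, 10 of 14 and 9 of 11 neutrophil genes tested. Of all genes tested 4.21% in brain, 2.56% in lung and 22.4% in heart were higher. The neutrophil counts use the full list of 14 genes, with Lcn2 among them. Pan-endothelial markers were lower at 6 hr in 5 of 15 genes in brain and 10 in heart, with 2 in lung, where 2.23% of all genes tested in brain, 20.3% in heart and 2.27% in lung were lower. The part of these cells in the members' changes was not tested.

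The other genes of the pathway were counted in 5 lists, chosen by function, and their counts at 6 hr stand beside a background of 4.21% higher and 2.23% lower in brain, 2.56% and 2.27% in lung, and 22.4% and 20.3% in heart. Of other toll-like receptors, 2 were higher and 1 lower of 7 tested in brain at 6 hr, 0 of 8 changed in lung and 3 of 5 were higher in heart. They include Tlr1, the partner of TLR2 (log2 fold change 2.04 in brain and 2.02 in heart), Tlr3, a receptor for double-stranded RNA (1.15 and 1.72), and Cd180, a TLR4-like surface receptor that fell in brain (-2.42). Of 9 genes of ligand transfer and receptor folding, Lbp, which carries LPS in serum, was higher in brain (1.79) and heart (1.96), and Cnpy4 was lower in both (-0.91 and -1.62). That list counted 1 higher and 1 lower in brain, 0 in lung, and 3 higher and 3 lower in heart. Of 16 kinases and ubiquitin ligases on the MyD88 side 1 was higher in brain ECs and 6 (with 1 lower) in heart ECs, while lung had 0, with Irak2, a kinase that acts after IRAK4, at 1.70 and 2.53. Of 10 genes on the TRIF side 3, 2 and 7 were higher, among them Ikbke, a kinase for interferon factors (2.08 in brain, 3.22 in lung and 4.99 in heart) and the interferon factor Irf7 (2.68, 4.29 and 2.54).

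Genes that restrain TLR4 signalling, the role of Irak3, made up the fifth list. Of 15 tested in brain 7 were higher at 6 hr, of 16 in lung 3 and of 15 in heart 7 higher and 1 lower. Tnfaip3, which makes the NF-kappaB inhibitor A20, had log2 fold changes of 4.00, 4.16 and 5.03 in brain, lung and heart. Zc3h12a, an RNase of cytokine transcripts, had 3.74 in brain and 2.99 in lung, and Socs1, an inhibitor of cytokine signalling, 6.55 in heart. At 24 hr 6 of 15 were higher in brain, 0 of 16 in lung and 7 of 15 in heart with 1 lower (6.52%, 0.363% and 9.07% of all genes higher, and 7.11% lower in heart), and at 168 hr no gene of the 5 lists passed in any tissue.

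Among 8967 genes with a mean level of at least 3 on the log2 CPM scale, the likeness of mean levels over the 18 tissue and time groups was described by Pearson's r. The groups share tissues and control libraries, so r carries no test. Cd14 was most like Lcn2 (r = 0.91), Steap4 (0.89) and Ptgs2 (0.89). Irak3 was most like Nfkbib (0.97), Ptpn2 (0.95) and Tnip1 (0.95). Tlr4 was most like Tnfaip1, Mtmr14 and Cdca4 (0.96 to 0.97) and Ly96 most like Pigx, Vrk1 and Sart1 (0.98 to 0.99). The lung group at 6 hr holds libraries without a count of these genes, set at -3.35. Within series 2 the mean of Ly96 in lung was -1.70 at 6 hr and 4.35 at 0 hr. How far r rests on this 1 group of shallow libraries was not tested.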

How the data were processed

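Per the labels, the authors used STAR 2.4.2 for alignment to mm10 and HTSeq 0.6.1 for counting, and the deposited values are raw gene counts, 1 table for each of 217 sequencing runs. The annotation release and strand setting are not given in the sources used here. Runs of 1 library were summed to 98 libraries, and the 18 with under 3% of reads on genes were left out. Rows for reads on no gene or several genes entered that share only. Tissue, time and replicate came from the labels. Library series and mouse were read from the names of the count tables.

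The tests used edgeR 4.0.16 in R 4.3.3 (filterByExpr, TMM, two-sided quasi-likelihood tests, library series as covariate), in 1 fit per tissue after LPS, 1 fit of 0 hr libraries and 1 fit of all tissues for interactions. Standard errors are the log2 fold change over the square root of F. Fits were tested on simulated data. For mean log2 levels a prior count of 2 was added. Lengths are summed exons of the GENCODE annotation at hand. Alternatives were DESeq2 1.42.0, limma-voom (limma 3.58.1), RLE scaling, no low-count filter, no series covariate, series 2 alone, replicate and mouse blocks, a prior count of 0.5, all libraries kept and each library left out. Fits without the series 1 mouse at 6 hr and with a minimum of 10% on genes were added after seeing the data. Tables used Python 3.11.15 with pandas 2.3.3 and figures matplotlib 3.10.9.

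All members are named. For the other lists up to 3 genes with the largest called change at 6 hr were named, and for likeness the 3 genes of highest r. Members and lists were chosen with earlier results of these data known. Replicate numbers did not pair libraries (below), whereas libraries of the same mouse in different tissues deviated together with a median r of 0.25 over 74 pairs.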

Additional observations from a re-analysis of the deposited data

Results flagged for a closer look

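A library that stands far from the others of its group was looked for with Dixon's test over 170 groups of 4 to 6 libraries, and 17 were found, where chance alone gives about 1 in 20 groups. Of these, 5 are 6 hr libraries of the mouse described in the report, each the lowest of its group: Cd14 at 2.54 CPM in brain and 3.38 CPM in heart, Irak3 at 26.1 CPM in heart, and Myd88 and Ticam1 at 0 CPM in lung. That lung library had an effective size of 34612 counts, and the part of depth in its zeros was not tested. The deep lung library at 6 hr was the highest for Ly96 (2.95 CPM) and Ticam2 (2.26 CPM), beside 3 libraries at 0. Brain replicate 2 at 24 hr was the lowest for Tirap (11.2 CPM) and Irak3 (103 CPM).

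The other libraries that stood apart were Ly96 in heart at 48 hr (replicate 4, lowest, 11.9 CPM), Cd14 in lung at 72 hr (replicate 5, highest, 8.18 CPM), Cd14 in heart at 0 hr (replicate 3, lowest, 2.01 CPM) and Tlr2 in lung at 168 hr (replicate 1, highest, 7.61 CPM). Ticam1 was lowest in replicate 1 at 168 hr in both brain (8.87 CPM) and heart (13.3 CPM), Ticam2 highest in heart at 72 hr (replicate 2, 0.308 CPM), and Irak3 highest in heart at 24 hr (replicate 4, 232 CPM).

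The response of Ly96 at 6 hr differed between tissues by a test of the difference itself, by 4.07 on the log2 scale for brain minus lung and -3.57 for lung minus heart (edgeR adjusted p = 2.89e-06 and 1.90e-05).

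The 18 libraries left out, 1 per tissue and time, also held counts of these genes. There, members were set against the 0 hr library of the same tissue by exact Poisson intervals of 95%, which cover counting error only and compare single libraries. Cd14 in brain had 13 counts at 6 hr and 1 at 0 hr. Irak3 had 22 counts in brain at 24 hr against 4, 17 and 27 in heart at 6 and 24 hr against 3, and 14 and 33 in lung at 24 and 48 hr against 0. Irak4 had 70 counts in brain at 24 hr against 17, 89 in heart at 48 hr against 57, and 7, 33, 12 and 17 in lung at 24, 48, 72 and 168 hr against 0. Those are the cases whose interval lay wholly above that of 0 hr, and the other comparisons did not pass this rule. In heart Cd14 had 1 count at 6 hr and 0 at 24 hr against 1 at 0 hr. Myd88 had 2 in heart at 6 hr against 4, and Tlr4 had no count in heart at any time. These libraries differ in depth, and no test was made. The share of all genes passing the rule was not counted.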

How the results depend on the processing

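Among the values of called members under the alternatives, 935 kept their call, 96 lost it and 0 reversed. All settings and left-out libraries kept 15 of 33 calls after LPS, 9 of 16 between tissues at 0 hr and 2 of 2 interactions. Depth limits lung most, where 1 deep library stands at 6 hr and 2 libraries at 24 hr. The cause of each change below was not tested.

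Replicate numbers did not pair the libraries: the median correlation of same-numbered libraries of a tissue was -0.038, with 49 of 151 pairs over 0.1. With the replicate block 3 members passed in brain at 48 hr (6 without), 0 in lung at 48 hr (1) and 0 in heart at 48 hr (2). With the mouse as block 2 interactions passed for lung minus heart at 6 hr (1).

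Without the series covariate 3 members passed in brain at 6 hr (5), 1 in brain at 72 hr (2), 1 in lung at 24 hr (0) and 5 in heart at 48 hr (2). Series 2 alone gave 2 and 1 in brain at 48 and 72 hr, 0 in lung at 6 and 48 hr, and 3 and 1 in heart at 24 and 48 hr. limma-voom gave 0 in brain at 72 hr and 0 in heart at 48 hr. DESeq2 gave 7, 1 and 3 in lung at 6, 24 and 48 hr, 6 in heart at 48 hr, and 2 and 3 interactions at 6 hr for brain minus lung and lung minus heart. RLE scaling gave 2 and 3 for the same interactions. No low-count filter gave 1 in lung at 24 hr, 4 and 1 in heart at 48 and 72 hr, 1 interaction for brain minus heart at 6 and at 24 hr, and 2 for lung minus heart at 6 hr. With all libraries kept 3 members differed between brain and heart at 0 hr (5). Without the series 1 mouse 4 and 1 passed in heart at 48 and 72 hr and 2 interactions for lung minus heart at 6 hr. A minimum of 10% on genes gave 4, 1 and 2 in lung at 6, 24 and 48 hr, with 1 library at 6 hr that is assumed to vary like the other groups. With a prior count of 0.5 the mean log2 CPM of Ticam2 at 0 hr was -3.13 in brain (-2.30 with 2) and -3.34 in heart (-2.45).

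Leaving out 1 library at a time gave 5 to 6, 4 to 6, 3 to 6 and 1 to 2 members in brain at 6, 24, 48 and 72 hr, 2 to 4 and 0 to 1 in lung at 6 and 48 hr, 4 in every case, 3 to 5 and 1 to 3 in heart at 6, 24 and 48 hr, 4 to 6, 4 to 6 and 4 to 7 between tissues at 0 hr (brain and lung, brain and heart, lung and heart), and 1 to 2 interactions at 6 hr for each pair with lung.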
